A study of Mus musculus with 6 samples.

Results

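A pair of RNA-seq libraries of C2C12 cells, a mouse myoblast line that grows as single cells and can fuse into muscle fibres in culture, were set directly against each other: siNS myoblasts starved for 4 h (the starved library) and siFoxk1 myoblasts that were not starved (the Foxk1 knockdown library). Their values do not pass through the one non-starved control that a comparison of each treatment with untreated cells would share. The rows compared were chosen by a rule on level: gene rows with 1 symbol that reached 1 FPKM (fragments mapped to a gene, scaled for its length and for all fragments mapped) in either library, without combined, repeated and short RNA rows and without Zzz3. They number 11032 of the 22989 rows in each table, and the 2 libraries are 2 of the series' 6 samples.

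The series mapped the forkhead factor Foxk1 and the corepressor Sin3A on chromatin and profiled expression after starvation or Foxk1 loss. All cells carry the strain label C3H and were grown with 10% fetal bovine serum. Starved cells were rinsed and kept for 4 h in Hank's salt solution with 10 mM HEPES, a buffered medium without amino acids or serum, after treatment with the siRNA called siNS. Knockdown cells received siRNA against Foxk1 and stayed in growth medium. The third library, siNS without starvation (the control library), is used here to place each gene beside both treated libraries, by its value, its interval and the log2 ratio to it. The starved and knockdown libraries differ in both the medium and the siRNA, whose parts in a difference cannot be told apart from this pair alone. The control library differs from the starved one in the medium and from the knockdown one in the siRNA. Each group has 1 library of a single line, so no spread between replicates exists, no gene was tested and every statement below compares these libraries and not the conditions.

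Cells short of amino acids activate the kinase GCN2, which slows translation while it favours that of ATF4, a transcription factor that switches on amino acid transport, amino acid synthesis and stress genes through a composite DNA site it shares with C/EBP partners. FoxO factors enter the nucleus when growth factor signalling is low and activate genes of atrophy, cell cycle arrest and autophagy; Foxk1 binds related forkhead sites and is known as a repressor that recruits Sin3 complexes. Serum withdrawal, in turn, is known to silence immediate early genes, which need ERK signalling, and the actin cytoskeleton genes, which need SRF and its actin-sensing cofactors of the MRTF family.

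A row is called different here where the log2 ratio of (FPKM + 1) was at least 1 in size, that is 2-fold on that scale, and the deposited 95% intervals of the 2 libraries did not overlap (intervals apart). By this rule 418 rows were higher in the starved library, 3.79% of all rows compared, and 516 were lower, 4.68%. Without regard to size, intervals were apart in 1504 rows higher in the starved library (13.6%) and 1537 lower (13.9%). Counts of list members given below are to be read beside these shares. A row under 1 FPKM in 1 of the libraries entered only through the other one and so had to be higher there: this holds for 59 of the rows called higher and 62 of those called lower, and list members of this kind that were called are pointed out below. The median log2 ratio of all rows was -0.01, with the 5th percentile at -0.98 and the 95th at 0.91. When FPKM were first scaled to equal sums, which shifts rows upward by 0.093 in the median and by at most 0.10 on this scale, the split was 521 higher and 427 lower. A list whose median is within 0.10 of 0 is therefore given no direction. The scale understates the change of low genes.

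**Figure D1:**
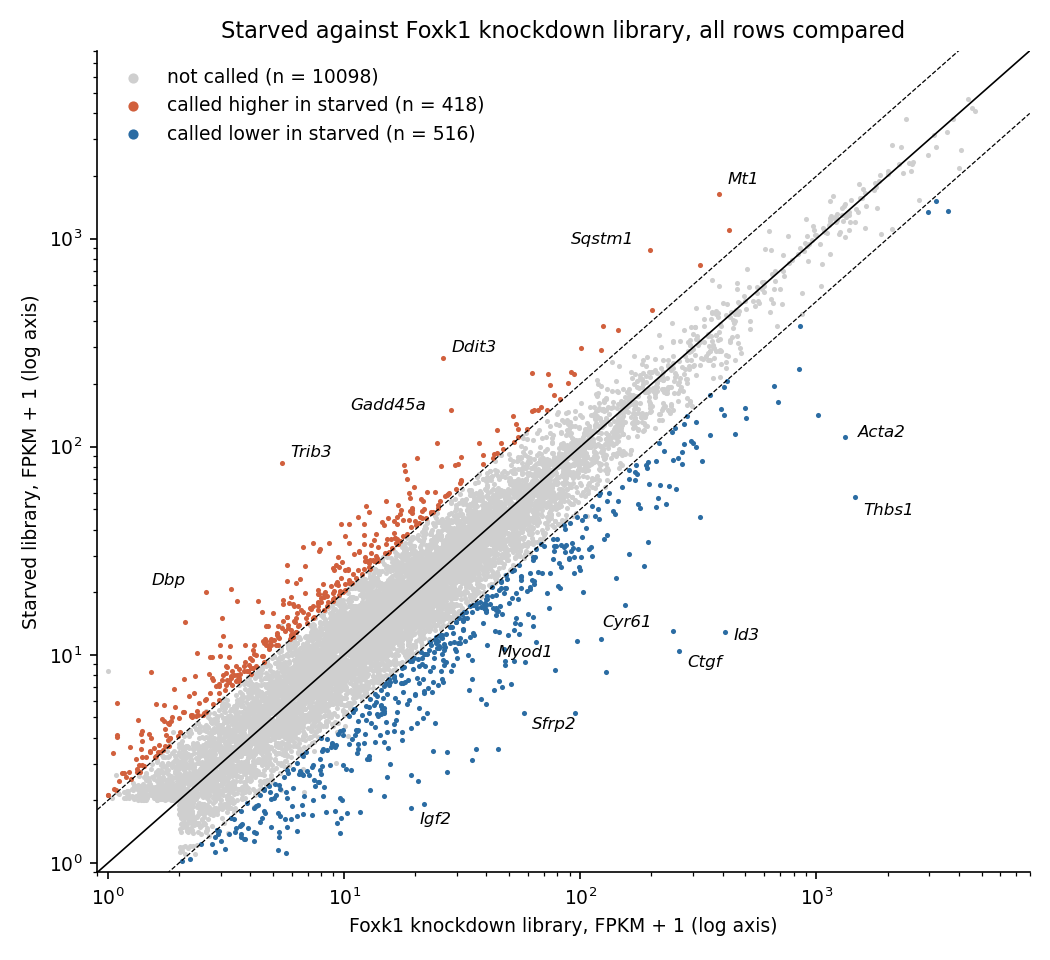
FPKM + 1 in the starved library (vertical log axis) against the Foxk1 knockdown library (horizontal log axis), 1 point per row for the 11032 rows compared, with the line of equality and dashed lines at 2-fold. Coloured points are the 418 rows called higher and the 516 called lower in the starved library; grey points beyond the dashed lines have overlapping intervals.

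The sequences of some promoters are shown first because the list with the highest and the list with the lowest median are each known for one DNA site. RefSeq promoter windows (build GRCm38.p6, 250 bases before to 50 after a start) were at hand for 8253 of the 11032 rows compared. The composite site of ATF4 and C/EBP factors was searched as TGATGNAAN on both strands. It was found in windows of 2.65% of the genes compared and 4.50% of all 27025 genes of the table, against 8 of 23 genes (34.8%) of the list of regulators of the amino acid and stress response, 21 of 301 called higher (6.98%) and 8 of 362 called lower (2.21%). For 7 listed genes called higher in the starved library, the stretch of the window around the match is printed 5′ to 3′ on the gene's strand, ending no later than the start, with the match in capitals.
Atf3, chr1:191183414-191183466, minus strand: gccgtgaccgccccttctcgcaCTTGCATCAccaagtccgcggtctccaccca
Chac1, chr2:119351026-119351078, plus strand: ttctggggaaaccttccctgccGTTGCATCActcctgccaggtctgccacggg
Asns, chr6:7693210-7693254, minus strand: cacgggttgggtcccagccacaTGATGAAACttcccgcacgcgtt
Fgf21, chr7:45615600-45615652, minus strand: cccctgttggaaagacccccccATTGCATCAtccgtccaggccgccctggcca
Nupr1, chr7:126625551-126625603, minus strand: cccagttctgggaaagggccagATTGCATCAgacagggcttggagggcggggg
Vldlr, chr19:27216797-27216849, plus strand: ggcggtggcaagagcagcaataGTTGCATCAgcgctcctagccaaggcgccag
Slc7a11, chr3:50443631-50443701, minus strand: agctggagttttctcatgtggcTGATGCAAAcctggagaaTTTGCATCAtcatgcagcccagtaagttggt
The Slc7a11 window held 2 matches. The match of Trib3, the highest gene of the comparison, began 13 bases after its start and is not printed. A match is a description of the letters and not a measured binding site. The list stands for a response known to use this site. Some of its members are among the genes called higher, so these shares are not separate.

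On the other side, the CArG box, the site of SRF, was found in 138 of the 8253 genes with a window (1.67%) and in 1.81% of all genes of the table. It was found in 21 of 362 genes called lower in the starved library (5.80%), in 5 of 301 called higher (1.66%) and in 7 of 22 genes of the list of SRF and MRTF targets (31.8%). Members of this list, too, are among the genes called lower, so these shares overlap. Stretches from 5 genes called lower are printed in the same way, with the CArG box in capitals.
Acta1, chr8:123894817-123894870, minus strand: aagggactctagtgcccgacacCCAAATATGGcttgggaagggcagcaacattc
Actc1, chr2:114052891-114052944, minus strand: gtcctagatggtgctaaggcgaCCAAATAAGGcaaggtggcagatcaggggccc
Myl9, chr2:156775281-156775334, plus strand: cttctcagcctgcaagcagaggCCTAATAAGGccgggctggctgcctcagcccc
Cnn2, chr10:79988522-79988575, plus strand: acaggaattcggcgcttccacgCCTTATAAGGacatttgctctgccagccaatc
Srf, chr17:46556193-46556266, minus strand: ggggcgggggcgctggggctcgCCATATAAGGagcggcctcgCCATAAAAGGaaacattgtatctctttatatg
Acta1 and Actc1 encode the skeletal and cardiac actins, Myl9 a regulatory myosin light chain and Cnn2 a calponin. The gene of SRF itself, Srf, carried 2 boxes in the printed stretch. Other motifs searched in the same windows were the E-box CAGCTG of myogenic factors, in 14 of 25 sarcomere genes (56.0%) against 17.8% of the genes compared, the TEAD site GGAATG, in 7 of 17 YAP and TEAD targets (41.2%) against 14.1%, and the forkhead site GTAAACA, in 6 of 26 FoxO-linked genes (23.1%) and 25 of 301 genes called higher (8.31%) against 2.96%. Of all 27025 genes of the table, 18.3% held the E-box, 16.6% the TEAD site and 4.05% the forkhead site. These sites were not particular to the lists named for them. The TEAD site was also in 8 of 22 SRF and MRTF targets (36.4%), 7 of 25 sarcomere genes (28.0%) and 78 of 362 genes called lower (21.5%). The forkhead site was also in 5 of 21 p53 targets and BH3-only genes (23.8%), a list that shares Gadd45a with the FoxO-linked one. The GC element GGCGCC of BMP signalling was in 4 of 13 BMP and Smad genes (30.8%), 25.5% of the genes compared and 13.4% of the table. CAGCTG and GGCGCC read the same on both strands, and no motif searched for here contains another one of those named.

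The regulators of the amino acid and stress response had the highest median of the lists with at least 5 compared genes. All 24 listed genes were compared; 17 had intervals apart and higher, 1 apart and lower, and 11 were called higher, with a list median of 0.90. Trib3, a pseudokinase induced by ATF4 and CHOP, stood at 3.53 FPKM in the control, 82.7 FPKM (95% interval 67.2 to 97.4, and so for each range in parentheses) in starved and 4.43 FPKM (3.42 to 5.44) in knockdown cells. The starved value was 18.6 times that of the knockdown library, whose interval overlapped the control. Ddit3, the gene of CHOP, stood at 23.4, 266 and 25.3 FPKM in the same order (log2 ratio 3.35), again with the starved library alone apart.

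Atf3, a bZIP repressor gene of the same response, differed from these. It was at 9.92 FPKM in the control, 17.1 FPKM (14.2 to 20.00) in starved and 3.32 FPKM (2.57 to 4.08) in knockdown cells, so that the control lay between the treated libraries and apart from both. Gdf15, a stress hormone gene, was at 45.9, 58.9 and 17.9 FPKM, with the knockdown library apart and low. Vldlr, Fgf21, Crebrf, Nupr1 and Chac1 were higher than the control in both libraries and further in the starved one, though Fgf21 entered only through the starved library. Vldlr, a lipoprotein receptor gene, went from 0.561 FPKM in the control to 1.39 in the knockdown and 9.24 in the starved library. Chac1, which encodes a glutathione-degrading enzyme, stood at 11.6, 20.1 and 54.8 FPKM in that order. Atf4 itself was not called, at 318 FPKM (249 to 373) in starved and 247 FPKM (192 to 286) in knockdown cells.

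Amino acid synthesis and transport genes lay on the same side. Of 23 synthesis genes 13 were apart and higher, 1 apart and lower, and 10 were called higher (median 0.67). Asns, asparagine synthetase, was at 63.98 FPKM in the control, 139 in starved and 50.7 in knockdown cells, and Gpt2, a mitochondrial alanine transaminase, at 22.4, 103 and 23.8 FPKM. In both only the starved interval was apart from the others. Phgdh, Psat1 and Shmt2, enzymes of serine and glycine synthesis, were called through the other library: Phgdh stood at 164 FPKM in the control, 202 FPKM (171 to 234) in starved and 88.1 FPKM (73.6 to 103) in knockdown cells, the last one apart. Psat1 was at 164, 228 and 90.2 FPKM and Shmt2 at 80.8, 103 and 45.1 FPKM.

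Of 20 transporter genes listed, 18 were compared and 2 were under 1 FPKM in both libraries; 9 were apart and higher, 2 apart and lower, 5 called higher and 1 called lower (median 0.60). The glycine transporter gene Slc6a9 stood at 7.49 FPKM in the control, 44.7 in starved and 10.4 in knockdown cells. Slc7a11, the cystine transporter gene whose window is printed above, reached 1 FPKM in the starved library alone, with 0.346, 3.85 and 0.344 FPKM, and so had to be higher there. The exception was Slc1a3, a glutamate transporter gene, at 4.71 FPKM in the control, 6.34 in starved and 16.8 FPKM in knockdown cells (log2 ratio -1.28). The cytosolic tRNA synthetases, also known ATF4 targets, shifted less: 7 of 18 were apart and higher, none apart and lower, and 1 was called, Sars for serine at 127 against 52.2 FPKM (median 0.40).

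**Figure D2:**
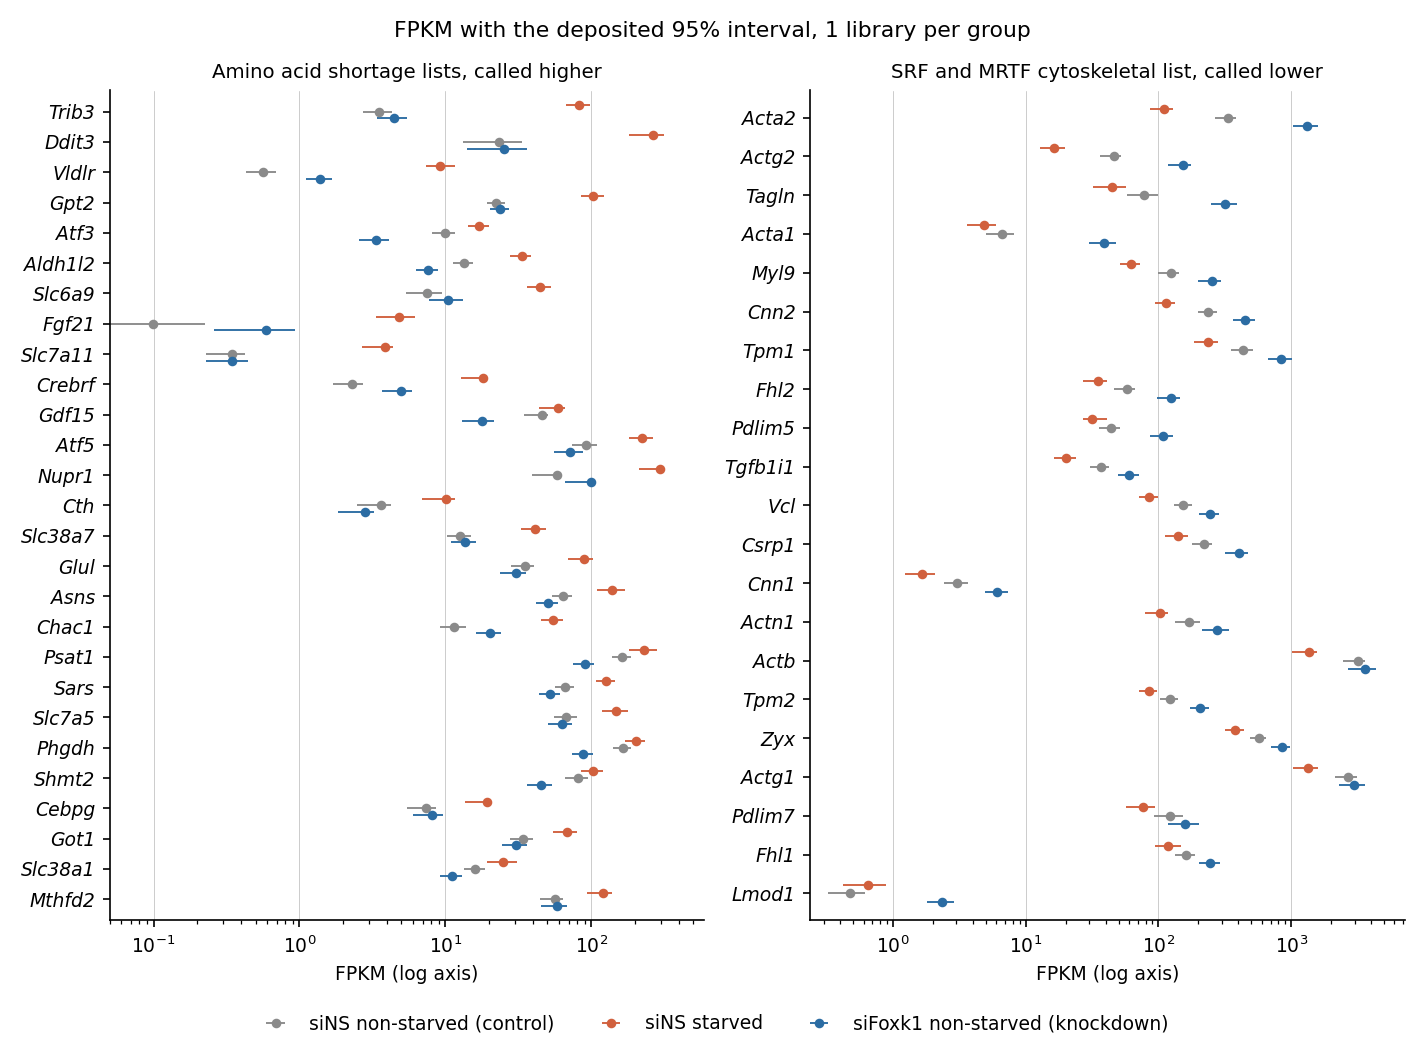
FPKM on a log axis with the deposited 95% interval for the 27 members of the amino acid shortage lists called higher (left; Slc1a3, the 1 called lower, is not drawn) and the 21 members of the SRF and MRTF list called lower (right), in the control (grey), starved (red) and knockdown (blue) libraries. On the left the starved library is the highest in each row, from Trib3 (82.7 against 4.43 FPKM) down; on the right it is the lowest in all rows but Lmod1, and the knockdown library the highest. A lower limit of 0 runs off the axis, and an interval is drawn to the value where the value lies above its own upper limit.

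FoxO-linked genes were higher in the starved than in the knockdown library more often than lower. Of 32 listed genes 30 were compared and 2 were under 1 FPKM; 17 were apart and higher and 3 apart and lower, with 10 called higher, 1 called lower and a median of 0.63. Gadd45a, a growth arrest gene, stood at 16.5 FPKM in the control, 149 FPKM (118 to 179) in starved and 27.3 FPKM (20.7 to 33.4) in knockdown cells, all 3 apart. Txnip, which encodes an inhibitor of thioredoxin and of glucose uptake, had the same order at 12.5, 87.6 and 19.3 FPKM. Both were thus higher than the control after either treatment and further after starvation.

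Cdkn1b, the gene of the cell cycle inhibitor p27, was on opposite sides. It stood at 27.3 FPKM in the control, 68.8 FPKM (49.5 to 73.6) in starved and 17.5 FPKM (12.7 to 19.2) in knockdown cells, all apart. Foxo3 was called higher in the starved library (20.7 against 8.44 FPKM), while Foxo1 leaned the other way, at 7.78 FPKM (5.92 to 8.96) against 14.1 FPKM (11.1 to 16.6), apart but under 2-fold (log2 ratio -0.78). Fbxo32, the atrogin-1 ubiquitin ligase gene of muscle atrophy, was higher than the control in both libraries, with 8.59 FPKM in the control, 45.8 in starved and 28.99 in knockdown cells, and was apart without reaching 2-fold between the last 2 (log2 ratio 0.64). Errfi1, a feedback inhibitor of EGF receptors, was the member called lower, at 8.23 against 57.02 FPKM.

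The autophagy list, by contrast, was centred near 0 between the treated libraries. Its median log2 ratio to the control was 0.39 in starved and 0.25 in knockdown cells. Of 39 genes compared 6 were apart and higher and 1 apart and lower, beside 13.6% and 13.9% of all rows, with 4 called higher, 1 called lower and a median of 0.01. The called genes encode cargo receptors and a few regulators. Sqstm1, the gene of the receptor p62, stood at 246 FPKM in the control, 878 FPKM (738 to 1018) in starved and 197 FPKM (165 to 229) in knockdown cells (log2 ratio 2.15). Nbr1, another receptor gene, was apart in opposite directions, at 23.9, 51.5 and 15.8 FPKM. Uvrag, a subunit gene of a lipid kinase complex, was at 28.6 against 8.41 FPKM and the ATG8 family gene Gabarapl1 at 149 against 65.3 FPKM.

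Ulk1 and Map1lc3b, the initiating kinase and LC3B genes, did not separate the libraries: Ulk1 was at 20.9 FPKM (17.6 to 24.2) and 16.6 FPKM (14.01 to 19.2) and Map1lc3b had 124 FPKM (93.6 to 139) against 98.1 FPKM (74.9 to 111), with overlapping intervals. Nrbf2, a subunit gene of a different lipid kinase complex from that of Uvrag, was called lower. It was at 10.1 FPKM in the control, 7.87 in starved and 20.9 in knockdown cells. In the list of lysosome and nutrient sensing genes 14 of 48 were apart and higher, 1 apart and lower and 4 called higher (median 0.24). These 4 were the folliculin gene Flcn (25.9 against 8.27 FPKM), its partners Fnip1 (33.6 against 6.35) and Fnip2 (9.51 against 3.09), and Tsc1 (13.3 against 5.99), all of them regulators of the growth kinase mTORC1. In each of the 4 the knockdown interval overlapped the control.

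**Figure D3:**
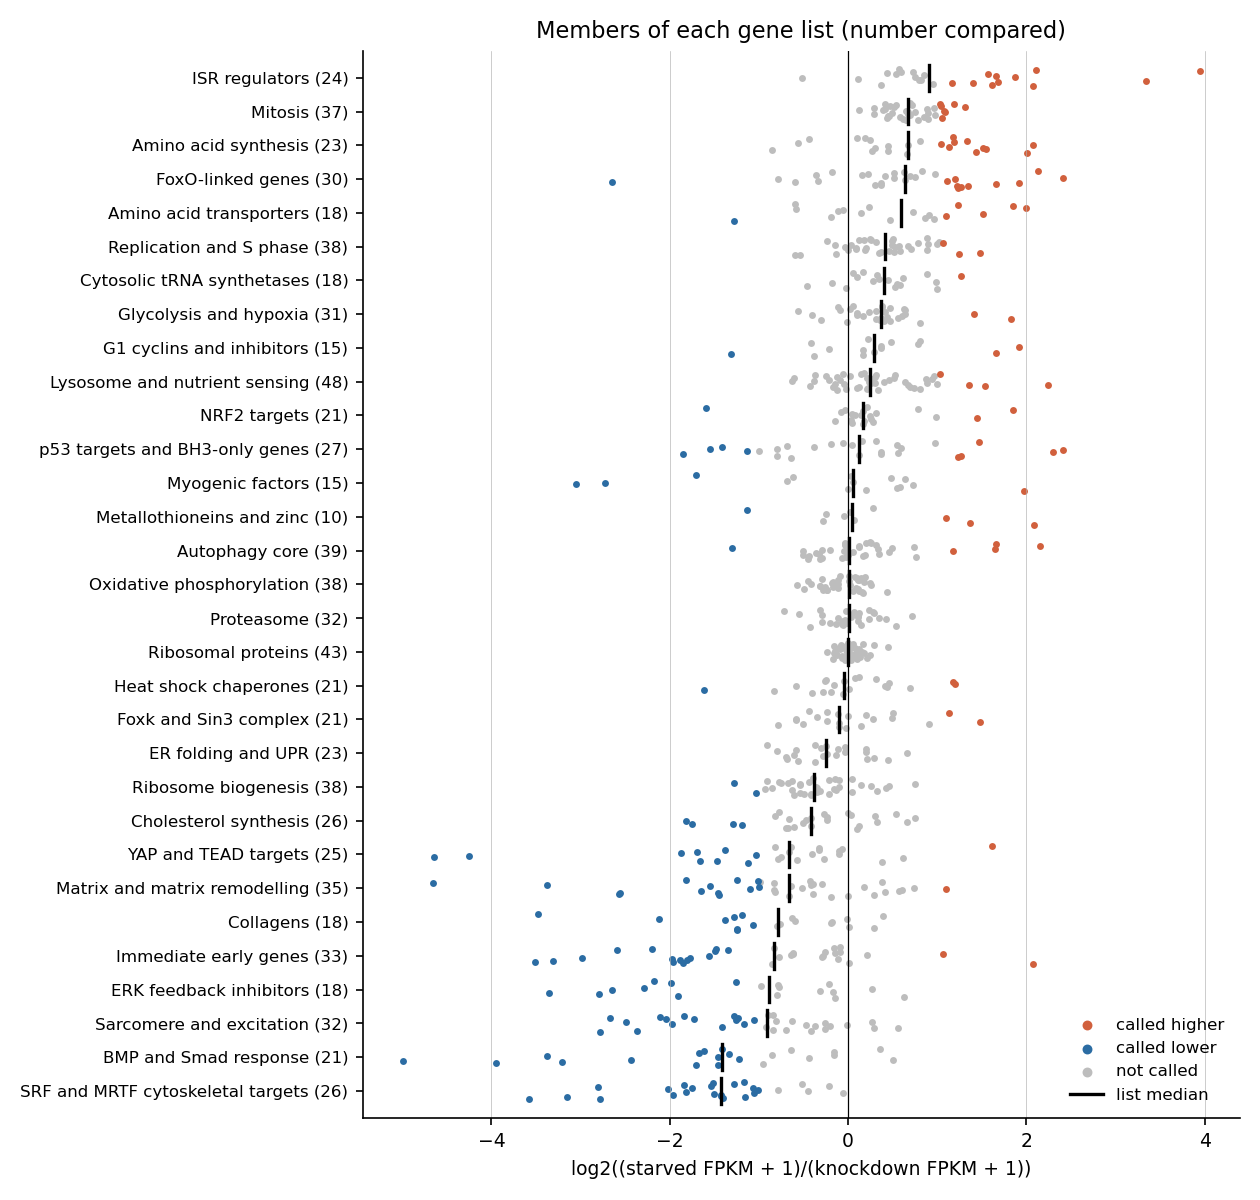
Log2 ratio of starved to knockdown, (FPKM + 1) scale, for the compared members of the gene lists: 1 grey point per gene, coloured where called, with a bar at each list's median. The ISR (amino acid and stress response) list sits highest with a median of 0.90 and the SRF and MRTF list lowest with -1.42, while autophagy, ribosomal protein, oxidative phosphorylation and proteasome lists are centred within 0.10 of 0.

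Cytoskeletal targets of SRF and MRTF had the lowest median of the lists with at least 5 compared genes. All 26 listed genes were compared; 22 were apart and lower, none apart and higher, and 21 were called lower, with a median of -1.42. Of the 21, Lmod1 entered only through the knockdown library. In 14 of the 21 the control lay between the treated libraries and apart from both. Acta2, smooth muscle actin, stood at 333 FPKM in the control, 110.0 FPKM (85.9 to 128) in starved and 1321 FPKM (1034 to 1593) in knockdown cells, which is 12 times the starved value. Tagln, an actin-binding protein gene, stood at 78.3, 44.8 and 319 FPKM, and Actg2, an enteric actin gene, at 46.5, 16.3 and 153 FPKM.

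The 5 genes whose CArG boxes are printed had been picked from those called lower. Myl9 was at 124 FPKM in the control, 61.99 in starved and 254 in knockdown cells. Cnn2 was at 238, 114 and 449 FPKM and Srf at 34.6, 16.8 and 48.8 FPKM, all apart on both sides of the control. Acta1 differed from these in that the starved interval overlapped the control, at 6.59 FPKM in the control, 4.81 FPKM (3.63 to 5.95) in starved and 39.04 FPKM (30.2 to 47.99) in knockdown cells. The abundant genes Actb and Actg1, often used as references, were also called lower, Actb at 1355 against 3587 FPKM and Actg1 at 1338 against 2975 FPKM, with the knockdown intervals overlapping the control. Actin genes have near-identical copies and pseudogenes, so the reads of each may have been split by the authors' counting.

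Immediate early genes were mostly lower in the starved library. Of 35 listed 33 were compared and 2 were under 1 FPKM; 20 were apart and lower and 2 apart and higher, with 15 called lower and 2 called higher, Atf3 and Klf4 (median -0.83). Egr2, a zinc finger factor gene, stood at 6.996 FPKM in the control, 0.911 in starved and 20.8 in knockdown cells, and Egr3 at 12.7, 1.74 and 26.2 FPKM, both apart in opposite directions. Of the 15, Egr2 and Fos were under 1 FPKM when starved and entered only through the knockdown library. Hbegf, an EGF receptor ligand gene, was at 19.8, 2.43 and 26.2 FPKM, where the starved library alone was apart. Fosl1 was lower than the control in both, with 24.6 FPKM in the control, 2.25 in starved and 11.8 in knockdown cells. Klf4, a zinc finger factor gene, was at 40.8, 92.00 and 43.3 FPKM.

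Feedback inhibitors of ERK signalling were called lower in 8 of 18 genes, with 12 apart and lower and none apart and higher (median -0.89). Of the 8, Dusp2, Spry1 and Spry4 reached 1 FPKM only in the knockdown library, so that their side was set by the filter. In 7 of the 8 only the starved library was apart from the control. Dusp6, an ERK phosphatase, stood at 33.2 FPKM in the control, 2.51 in starved and 35.1 in knockdown cells, and Etv5, an ETS factor, at 9.16, 1.003 and 8.82 FPKM. The exception was Spry1, whose control value of 1.36 FPKM lay apart from and between 0.334 FPKM in starved and 4.28 FPKM in knockdown cells. Dusp1 was not called, at 26.7 FPKM (20.4 to 30.8) and 29.7 FPKM (22.9 to 34.5).

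BMP and Smad response genes held the lowest log2 ratio among rows with intervals apart that reached 5 FPKM. Of 25 listed 21 were compared and 4 were under 1 FPKM; 16 were apart and lower, 1 apart and higher, and 13 called lower (median -1.41). Id3, an inhibitor of bHLH factors such as MyoD, stood at 246 FPKM in the control, 11.9 FPKM (8.35 to 13.8) in starved and 411 FPKM (294 to 438) in knockdown cells, apart on both sides of the control (log2 ratio -4.99). Id1 was at 98.5, 7.27 and 127 FPKM and Id2 at 74.8, 7.47 and 77.3 FPKM, both with the starved library alone apart. Inhba, which encodes the activin subunit, and the feedback inhibitor Smad7 lay on opposite sides of the control, Inhba at 20.1, 7.89 and 46.9 FPKM and Smad7 at 10.8, 4.78 and 17.4 FPKM.

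YAP and TEAD targets, which respond to cell tension and spreading, had 15 of 25 genes apart and lower, 2 apart and higher, 9 called lower and 1 called higher (median -0.66). Ctgf and Cyr61, matricellular genes also known as serum-induced, headed the list. Ctgf stood at 154 FPKM in the control, 9.46 FPKM (7.33 to 11.3) in starved and 261 FPKM (207 to 309.9) in knockdown cells, and Cyr61 at 161, 12.03 and 246 FPKM. Both were apart from the control on opposite sides. Ankrd1, a muscle ankyrin repeat gene, was lower than the control in both libraries, with 455 FPKM in the control, 105 in starved and 294 in knockdown cells. Wwc1, which encodes the upstream regulator KIBRA, was the member called higher, at 3.29 against 0.398 FPKM, and entered only through the starved library.

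Regulators of the myogenic program were apart in both directions. Among 15 compared of them (5 of 20 listed were under 1 FPKM) 5 were apart in each direction, 1 was called higher and 3 lower, and the median was 0.06. Myod1, the myoblast determination factor, stood at 70.1 FPKM in the control, 10.7 FPKM (8.49 to 12.8) in starved and 95.8 FPKM (76.9 to 114) in knockdown cells, and Myog, which drives differentiation, at 14.2, 6.02 and 45.4 FPKM. Myog was apart from the control on opposite sides; for Myod1 the knockdown interval overlapped the control. Tmem8c, the gene of the fusion protein myomaker, was also called lower (5.96 against 21.7 FPKM), whereas Eya1, a coactivator gene, was called higher (25.6 against 5.800 FPKM) and Myf5 was at 29.6 FPKM (20.6 to 31.1) against 17.5 FPKM (12.6 to 20.4).

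Sarcomere and excitation genes were lower in the starved than in the knockdown library. Of 45 listed 32 were compared, with 20 apart and lower, 1 apart and higher and 15 called lower (median -0.90). The other 13 were under 1 FPKM in both libraries, and 4 of the 32 reached 1 FPKM in the knockdown library alone, 2 of them called. In 10 of the 15 the knockdown library alone was apart from the control. Mylpf, a fast myosin light chain gene, stood at 12.6 FPKM in the control, 8.29 in starved and 51.2 in knockdown cells, and Tnnt1, slow troponin T, at 8.99, 5.78 and 42.03 FPKM. Actc1 was apart in opposite directions, at 7.16, 3.702 and 23.3 FPKM. An E-box from the Mylpf window, 51 bases before the start, is shown in capitals as an example of the motif counted above.
Mylpf, chr7:127211535-127211584, plus strand: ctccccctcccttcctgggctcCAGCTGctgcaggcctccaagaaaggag

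Matrix genes were lower in the starved than in the knockdown library as well. Of 23 collagen genes listed 18 were compared, with 12 apart and lower, none apart and higher and 8 called lower (median -0.78). Of 40 other matrix and remodelling genes 35 were compared, with 20 apart and lower, 4 apart and higher, 13 called lower and 1 called higher (median -0.66). The median log2 ratio of the collagens to the control was -0.30 in starved and 0.63 in knockdown cells. For the other matrix and remodelling genes it was -0.17 and 0.33. The higher call, Mmp10, and the lower call Fmod reached 1 FPKM in 1 library alone. Thbs1, which encodes the matricellular thrombospondin, stood at 228 FPKM in the control, 56.6 FPKM (47.5 to 65.6) in starved and 1454 FPKM (1151 to 1756) in knockdown cells, a 25.7-fold range between the treated libraries with the control apart from both. Col8a2 stood at 4.23, 2.11 and 33.7 FPKM and Col5a2 at 89.2, 52.1 and 231 FPKM. Col12a1 and Col14a1 were higher than the control in both libraries and further in the knockdown one, Col12a1 at 30.8, 49.2 and 118 FPKM; Col14a1 entered only through the knockdown library.

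**Figure D4:**
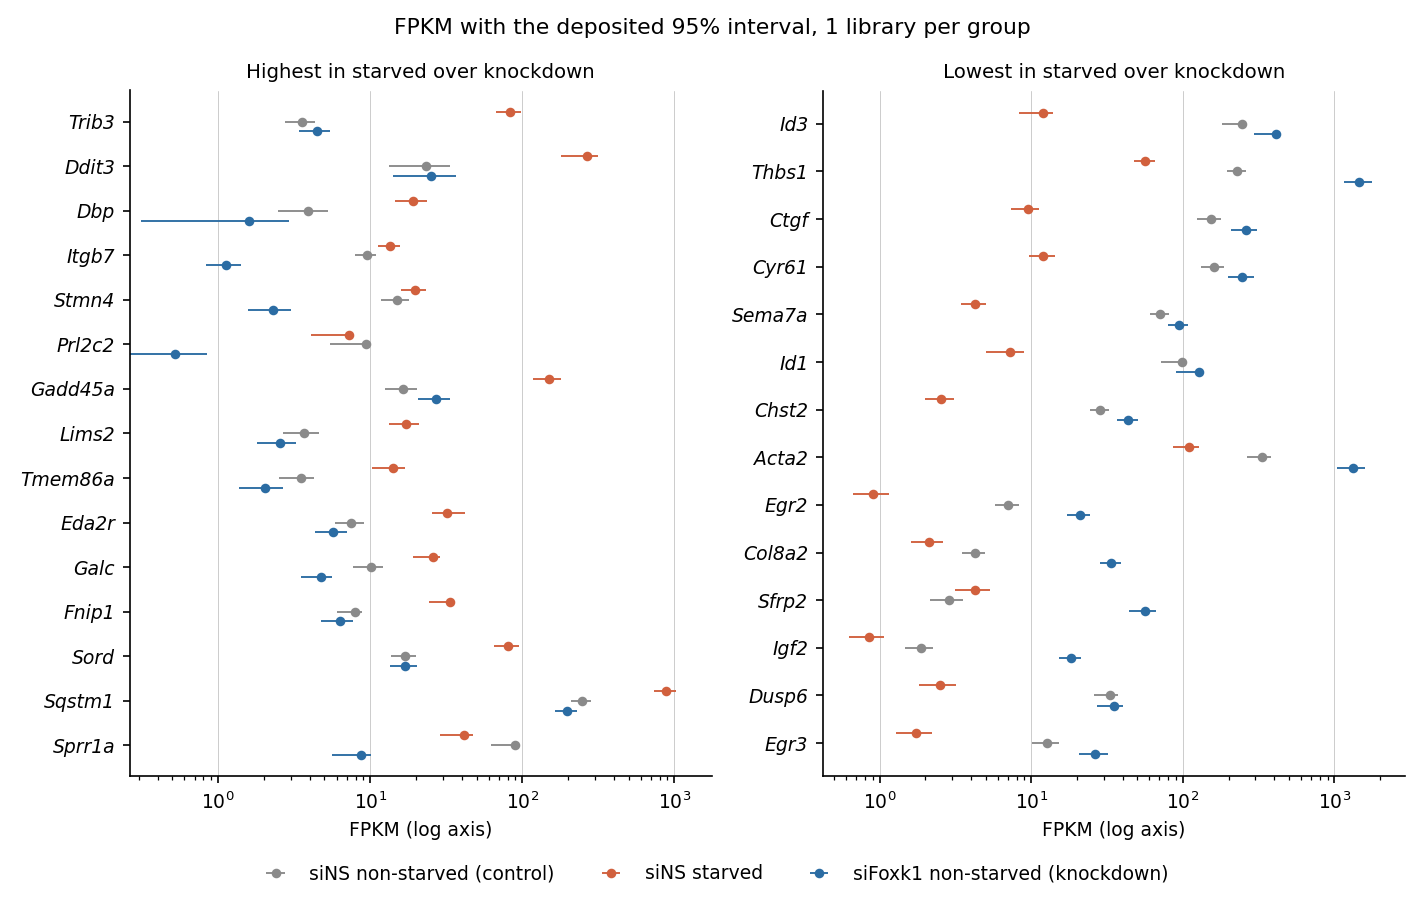
FPKM on a log axis with the deposited 95% interval for the 15 highest and 14 of the 15 lowest rows by log2 ratio with intervals apart and at least 5 FPKM in either library, in the control (grey), starved (red) and knockdown (blue) libraries. Trib3 (82.7 against 4.43 FPKM) heads the higher rows and Id3 (11.9 against 411 FPKM) the lower rows. An interval is drawn to the value where the value lies above its own upper limit.

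Cell cycle genes lay on the higher side, through low values in the knockdown library. The median log2 ratio of mitosis genes to the control was -0.09 in starved and -0.74 in knockdown cells. For replication genes it was -0.22 and -0.68. Of 37 mitosis genes 25 were apart and higher, none apart and lower and 7 called higher (median 0.68); of 38 replication genes 14 were apart and higher, 1 apart and lower and 3 called higher (median 0.42). Of these 10 calls, 4 mitosis and 2 replication genes had the knockdown library alone apart from the control, and 3 and 1 were apart in opposite directions. Top2a, topoisomerase II, stood at 128 FPKM in the control, 176 FPKM (149 to 203) in starved and 76.5 FPKM (64.1 to 88.9) in knockdown cells. Cdt1, which loads the replicative helicase, was at 26.1, 37.1 and 12.6 FPKM. Prc1, a spindle midzone gene, had nearly the control value in the starved library, at 95.96, 96.7 and 46.3 FPKM. Cyclin D1 did not separate the treated libraries: Ccnd1 was at 192 FPKM in the control, 47.4 FPKM (39.6 to 55.3) in starved and 61.96 FPKM (52.6 to 71.3) in knockdown cells, with overlapping intervals.

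Among p53 targets and BH3-only genes 27 of 30 were compared, with 8 apart and higher, 9 apart and lower, 5 called higher and 4 called lower (median 0.12). Eda2r, a death receptor gene, was at 32.1 against 5.703 FPKM and the BH3-only genes Bbc3 and Bcl2l11 at 15.7 against 6.14 and 18.98 against 7.28 FPKM. Btg2, an antiproliferative gene, was called lower through the knockdown library, at 12.6 FPKM in the control, 10.2 in starved and 39.4 in knockdown cells. Of 26 cholesterol synthesis genes 10 were apart and lower, 2 apart and higher and 4 called lower (median -0.42), among them Fdps, the farnesyl diphosphate synthase gene, at 83.7 FPKM in the control, 43.6 in starved and 101 in knockdown cells. Of 38 ribosome biogenesis genes 12 were apart and lower, none apart and higher and 2 called lower (median -0.38): Ppan at 9.85 against 25.4 FPKM and Grwd1 at 6.895 against 15.2 FPKM.

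Several housekeeping lists held no gene called between the treated libraries. Against the control, the median log2 ratio of the proteasome list was -0.34 in both treated libraries. That of the ribosomal proteins was -0.03 in both, and that of oxidative phosphorylation -0.13 in starved and -0.15 in knockdown cells. None of 43 ribosomal protein genes (median 0.00), 38 oxidative phosphorylation genes (0.01) or 32 proteasome genes (0.01) was called in either direction; intervals were apart in 1 proteasome gene in each direction and in no gene of the first 2 lists. None of 23 genes of folding in the endoplasmic reticulum was called either, although 7 were apart and lower and 1 apart and higher (median -0.25), including the chaperone gene Hspa5 at 237 FPKM (199.7 to 275) against 412 FPKM (341 to 484). Of 31 glycolysis and hypoxia genes 7 were apart and higher, 1 apart and lower and 2 called higher, the enolase gene Eno2 (8.77 against 1.76 FPKM) and Ndrg1 (197 against 73.4 FPKM), with a median of 0.37. Metallothioneins, which bind zinc, were called higher, Mt1 at 533, 1638 and 387 FPKM and Mt2 at 374, 1095 and 425 FPKM; for both genes the deposited values of all 3 libraries exceed their own upper limits. In this list of 10 compared genes 3 were called higher and 1, the zinc importer gene Slc39a14, lower (median 0.05). NRF2 targets (2 of 21 called higher, of which Slc7a11 is 1, 1 lower, median 0.17), heat shock chaperones (2 of 21 higher, 1 lower, median -0.05) and G1 cyclins and inhibitors (2 of 15 higher, 1 lower, median 0.30) had few calls.

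The target of the siRNA and its partners were measured in the same tables. Foxk1 stood at 9.09 FPKM in the control, 16.1 FPKM (13.3 to 18.9) in starved and 5.15 FPKM (4.29 to 6.02) in knockdown cells. Its level in the starved library was 3.13 times that in the knockdown library, with the control apart from and between both. Its paralog Foxk2 was at 25.3 and 29.9 FPKM and Sin3b at 74.8 and 88.4 FPKM in the starved and knockdown libraries, with overlapping intervals. Sin3a was at 28.7 FPKM (24.2 to 33.2) and 19.9 FPKM (16.4 to 23.5), apart but under 2-fold. Among the 21 genes of the Foxk and Sin3 list, Foxk1 and the Sin3 subunit gene Sap30 were called higher and none lower (median -0.10, mean 0.050).

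The control library divides the calls by which treated library moved away from it, as counts that share that 1 control. Of the 418 rows called higher in the starved library, the control value lay between the 2 libraries in 290 (69.4%). Its interval was apart from both in opposite directions in 71 rows, apart from the starved library alone in 211 and from the knockdown library alone in 92. It was apart from both on the same side in 31, of which the starved library was further in 21, and overlapped both in 13. Of the 516 rows called lower the control lay between in 420 (81.4%), with 152 apart in opposite directions, 194 apart from the starved library alone, 147 from the knockdown library alone, 12 on the same side (8 with the starved library further) and 11 overlapping both. Rows called lower had median log2 ratios to the control of -0.75 in starved and 0.65 in knockdown cells, and rows called higher 0.90 and -0.36.

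**Figure D5:**
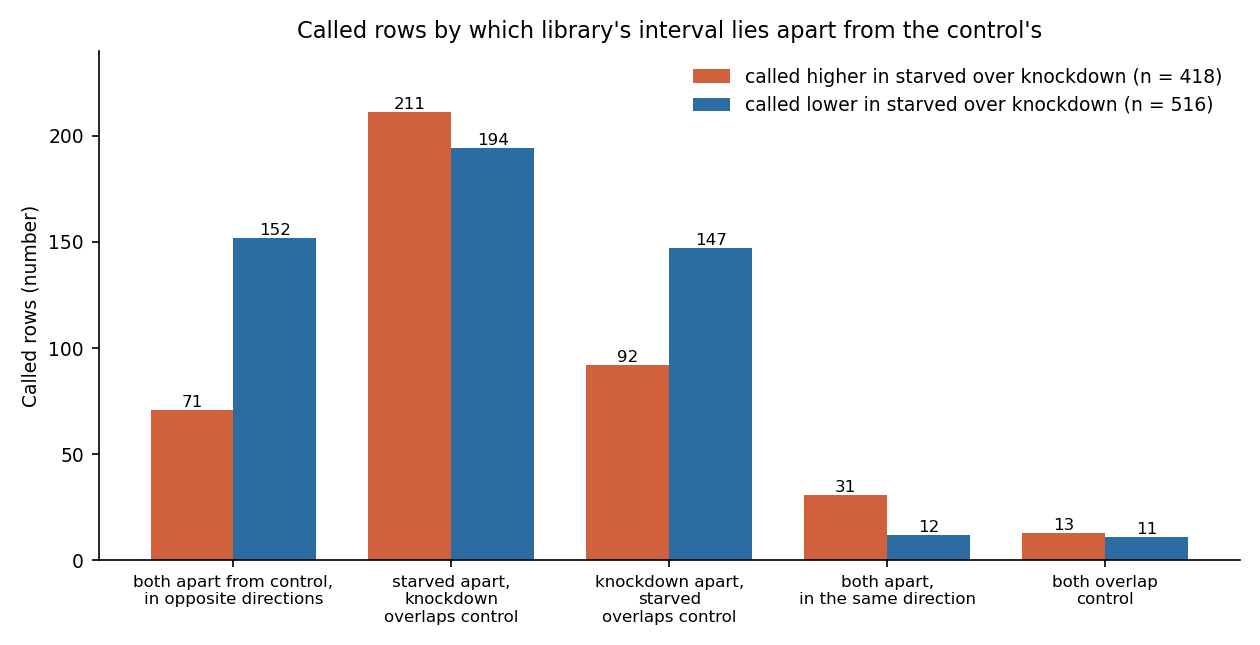
Number of rows called higher (red, 418) and called lower (blue, 516) in the starved over the knockdown library, by which library's 95% interval lies apart from that of the control. The class apart from the control in opposite directions holds 71 rows called higher and 152 called lower, and the class apart in the same direction 31 and 12.

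Beyond the genes of the lists, the rows apart in opposite directions with the largest differences were, on the higher side, Itgb7, an integrin subunit gene, at 9.49 FPKM in the control, 13.4 in starved and 1.12 in knockdown cells, Gpnmb, a lysosomal glycoprotein gene, at 0.547, 4.84 and 0.0914 FPKM (entered only through the starved library), and Galc, which encodes lysosomal galactosylceramidase, at 10.04, 26.1 and 4.71 FPKM. On the lower side they included Chst2, a sulfotransferase gene, at 28.4, 2.54 and 43.7 FPKM and the growth factor gene Igf2 at 1.87, 0.845 and 18.2 FPKM, which entered only through the knockdown library. Genes higher in both libraries and further in the starved one included Acot2, a mitochondrial thioesterase gene, at 2.205, 16.5 and 4.52 FPKM and the ubiquitin ligase gene Dtx4 at 2.49, 14.9 and 3.99 FPKM. Genes lower in both and further in the starved one included Hmga2, a chromatin protein gene of growing cells, at 86.1, 11.6 and 53.9 FPKM, the transferrin receptor gene Tfrc at 25.3, 6.97 and 16.3 FPKM and the TWEAK receptor gene Tnfrsf12a at 377, 80.6 and 171 FPKM.

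In a smaller class the knockdown library lay further from the control on the same side. Sprr1a, a cornified envelope gene also known in stressed cells, stood at 89.5 FPKM in the control, 41.5 FPKM (28.9 to 47.1) in starved and 8.67 FPKM (5.64 to 10.1) in knockdown cells, and the neurofilament gene Nefl at 109.9, 50.7 and 11.4 FPKM. Both are called higher in the starved library although both were lower there than in the control. Sfrp2, a secreted Wnt antagonist, had the knockdown library alone apart from the control. It stood at 2.87 FPKM in the control, 4.28 FPKM (3.15 to 5.38) in starved and 56.7 FPKM (44.3 to 66.1) in knockdown cells. Outside this class were Dbp, a circadian bZIP factor gene, at 3.88, 19.2 and 1.601 FPKM, and Sema7a, a membrane-anchored semaphorin gene, at 70.8, 4.23 and 94.3 FPKM. In both the control value lay between the treated libraries, with the starved library alone apart from it.

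Rows at the edge of the 2-fold rule differed little. Just inside on the higher side were Tgfbr3, which entered only through the starved library (1.74 against 0.367 FPKM) and Sft2d2 (29.7 against 14.3 FPKM), and just outside Dnaja3 (27.9 against 13.4 FPKM); on the lower side Vasn (23.2 against 47.3 FPKM) was inside and Cbr2 (45.7 against 92.3 FPKM) outside.

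Genes expressed in myoblasts were present in all 3 libraries: Des, Vim, Cdh15, Myf5 and Myod1 were above 10 FPKM in each. Myod1 was only just above it in the starved library, at 10.7 FPKM (8.49 to 12.8) against 70.1 FPKM in the control. Most markers of other cells were under 1 FPKM in both treated libraries, but some of the others stood high. Of 8 endothelial markers 1, Flt1, reached 1 FPKM in either treated library and of 8 immune markers found 1, Cd68, at 4.099 against 1.26 FPKM. In the fibroblast list, where Thy1 and Tcf21 were at or near 0, 4 of 8 reached it, in the adipocyte list, where Plin1 and Lep were listed at or near 0, 3 of 8, and in the bone and cartilage list, where Alpl and Acan were at or near 0, 4 of 10. The neural and glial list had 2 of 8, Tubb3 and Mbp, with Sox10 at or near 0. Tubb3 stood at 89.7 FPKM in the control, 52.6 in starved and 68.3 in knockdown cells. Its starved interval was apart from the control and overlapped the knockdown one. Mbp (2.00 against 0.798 FPKM) was apart and higher but entered only through the starved library. Of 10 replication-dependent histone genes, whose transcripts mostly carry no poly(A) tail, 3 were compared and 1, Hist1h2bc, was called higher (21.1 against 5.24 FPKM). Summed FPKM of the bone and cartilage list were 2949 in the control, 1580.2 in starved and 2779 in knockdown cells, most of it Spp1, which myoblasts also express. Members of these lists lay on both sides. Lower in the starved library, as the matrix genes were, with intervals apart, were Dmp1, the 1 marker called lower, which entered only through the knockdown library (0.763 against 10.6 FPKM), Sox9 (17.6 against 33.5 FPKM), Spp1, the fibroblast marker Cd34 (24.7 against 49.2 FPKM) and the adipocyte marker Lpl (4.42 against 8.89 FPKM). The fibroblast markers Pdgfra (2.63 against 1.31 FPKM) and Pi16 (1.002 against 0.4502 FPKM) were apart and higher, and Runx2, Ly6a, Pparg and Cebpa had overlapping intervals. Ly6a, of the fibroblast list, stood at 216 FPKM in the control, 177 in starved and 206 in knockdown cells. Summed levels, with the control first and the knockdown last, were 249, 206 and 257 FPKM for the fibroblast list and 22.3, 28.5 and 31.6 FPKM for the adipocyte list. The part of these cells in the matrix result was not tested. Fewer cells of a type and less RNA per cell cannot be told apart in bulk RNA. FPKM summed to 527687 in the starved, 562507 in the knockdown and 566814 in the control library, and the number of reads behind them is unknown. The median half-width of the deposited interval was 19.3% of the value in starved and 19.2% in knockdown cells among 8047 rows of 5 FPKM or more in both.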

How the data were processed

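Polyadenylated RNA of C2C12 myoblasts was sequenced, with 1 library in each of 3 groups taken from the sample titles. The deposited tables give, per the file headers, the mean FPKM of each gene symbol and the limits of a 95% interval. Build mm9 and the tools Cufflinks 2.1.1, Cuffdiff, Bowtie2 2.1.0 and TopHat2 2.0.9 come from the submitters' processing notes. Not given in the sources used here: tool roles, options, the annotation, how intervals arose and whether a mean pools replicates. Values in FPKM were taken as the authors deposited them. They hold no read counts, and the low values showed no whole-read steps (the commonest ratio took 2.36% of 1908 rows, within 1%), so read depth is unknown and count models were not used.

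Of 22989 rows, 364 combined several symbols, 388 belonged to 161 repeated symbols and 679 were short RNAs by name, with some rows in several of these classes; Zzz3 was dropped, since its knockdown limits are swapped. In all 1303 rows were left out. Of the 21686 rows left, 10654 were under 1 FPKM in both libraries and 11032 were compared; 10473 of these reached 1 FPKM in both, 314 only when starved and 245 only after knockdown. The log2 ratio was log2((starved + 1)/(knockdown + 1)), while ratios given as times are of plain FPKM. The value exceeded its own upper limit in 301 (starved) and 222 (knockdown) rows compared.

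The rows, the 38 lists (957 genes: 929 matched by symbol, 2 through RefSeq synonyms of GRCm38.p6, 19 only in combined rows, 2 under repeated symbols, 5 not found) and the call rules were chosen with earlier results of these data known. Counts and medians of lists are descriptions without a test. Genes were named by rule: the 15 highest and lowest rows with intervals apart at 5 FPKM or more, up to 4 members of each list, Foxk1, Foxk2, Sin3a and Sin3b, and the 10 largest in each direction among rows apart from the control on both sides or on one side; further list members were chosen after their values were seen. Promoter windows were matched by symbol and searched on both strands. Alternatives covered the pseudocount, the filter, the fold, the intervals, the scaling and the list statistic. Scripts were tested on simulated data. ChIP-seq regions were not used here, and some genes the rule named are not reported here. Scripts ran under Python 3.11.15 with pandas 2.3.3, numpy 2.4.6 and matplotlib 3.10.9.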

Additional observations from a re-analysis of the deposited data

How the results depend on the processing

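No paired analysis was possible because each group has 1 library and the groups share fewer than 2 replicate numbers, and no spread between replicates limits any value; depth is unknown. The 418 calls higher in the starved library became 655 with a pseudocount of 0.1, 149 with one of 5, 1248 at 1.5-fold and 27 at 4-fold. The 516 calls lower became 284 with a pseudocount of 5, 1297 at 1.5-fold and 77 at 4-fold, and 689 with a pseudocount of 0.1. With a pseudocount of 5, rows apart from the control in opposite directions numbered 33 in place of 71 among those called higher; rows on the same side with the starved library further numbered 11 in place of 21 (higher) and 5 in place of 8 (lower), and at 1.5-fold 49 and 21. A larger pseudocount or fold lowers these counts by construction. Scaling by the median of ratios gave 443 higher and 485 lower, a filter at 5 FPKM 344 and 453, and calls without intervals 427 and 528. The Foxk and Sin3 list changed sign between its median (-0.10) and mean (0.050, with the cause not tested). Of the list values recomputed, 128 kept within 0.10 of the reported one and 26 moved further. Of 126 genes chosen by the naming rule that were called, 19 lost the call with a pseudocount of 5, among them Slc7a11 (0.73), Fgf21 (0.81), Gpnmb (0.95), Fnip2 (0.84), Tsc1 (0.74), Cd68 (0.54), Sap30 (0.90), Slc1a3 (-0.94), Slc39a14 (-0.89), Tfrc (-0.83), Grwd1 (-0.76) and Col14a1 (-0.45). At 4-fold 68 lost it, and on equal sums Grwd1 (-0.94) and Tnfrsf12a (-0.97) did. A called row could not change sign in these settings, because only scaling can alter the sign. Scaling to equal sums shifted rows by at most 0.10.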

Other observations

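Rows that combine several symbols were left out of the comparison because their reads cannot be given to 1 gene. Of 234 such rows at 1 FPKM or more in either library, 7 were 2-fold or more higher with intervals apart and 6 lower in the starved library. The highest was Prl2c3,Prl2c4, prolactin family genes with near-identical copies, at 96.0 FPKM in the control, 68.3 in starved and 5.14 in knockdown cells (log2 ratio 3.50). The single row of their relative Prl2c2 had the same order, at 9.35, 7.29 and 0.524 FPKM. It entered only through the starved library and so had to be higher there than in the knockdown one. Its control and starved values exceed their own upper limits, and the reads of these copies may have been split. The row of the heat shock cochaperone Dnaja1 with Mir207 was lowest, at a log2 ratio of -2.15.

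Of the rows called, 345 of the 418 higher and 399 of the 516 lower in the starved library stood in none of the 38 gene lists. Among those higher were Sord, which encodes sorbitol dehydrogenase, at 16.99 FPKM in the control, 80.9 in starved and 16.9 in knockdown cells, and Stmn4, a stathmin family gene, at 14.97, 19.6 and 2.30 FPKM.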
